A study of Mus musculus with 8 samples.

Results

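The mouse genome annotation (mm9, Ensembl release 65) holds 56 protein-coding genes whose symbol is Rab followed by a number and at most 1 letter, out of 22350 protein-coding genes. These 56 Rab GTPase genes are all those whose symbol fits this rule, which uses no measured value, and were followed through 3 H3K4me3 peak lists and 1 NFATc2 peak list. The cells were D1 cells, a long-term DC line from the spleen of C57BL/6 mice. H3K4me3 was measured in non-treated cells (NT), after 2 h with curdlan at 10 μg/ml, and after 2 h with curdlan and FK506, for which the labels give no dose. NFATc2 was measured after 30 min with 10 μg/ml curdlan, in D1 cells that stably carried NFATc2 with a V5 tag (NFAT1 in the labels) from a lentiviral vector and had been sorted for low expression, so these sites are those of the tagged protein in curdlan-treated cells only. Curdlan is a β-glucan that activates the receptor dectin-1, and FK506 inhibits calcineurin, the phosphatase that releases NFAT proteins into the nucleus. A single ChIP library and its input stood for each condition, so no difference between conditions could be tested against a spread between replicates, and the intervals given are 95% intervals for counting error only.

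Rab proteins are small GTPases that label the membranes of a cell. In the GTP-bound form each one sits on particular vesicles or organelles and recruits the effectors that move, tether or fuse them, and in the GDP-bound form it is withdrawn into the cytosol. DCs rely on this traffic to take up particles into phagosomes, to mature them, to load antigen and to release cytokines. H3K4me3, trimethylation of lysine 4 of histone H3, is found around the starts of genes that are active or ready to be transcribed.

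The ChIP libraries held 16662316 (NT), 21289349 (curdlan), 19468498 (curdlan+FK506) and 14377535 (NFATc2) tags, which makes 1 tag worth 0.047 to 0.0696 CPM (tags per 1000000 ChIP tags of the library). The 3 H3K4me3 lists held 15799, 14872 and 14878 peaks and the NFATc2 list 9438. An H3K4me3 peak lay at 10 of 11 DC marker genes found in the annotation, Flt3 being the exception, at 1 of 4 T cell genes (Lck) and at none of the 4 B cell or 4 fibroblast genes in the NT list.

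Of the 56 Rab genes, 42 (75%, exact interval 61.6 to 85.6) had an H3K4me3 peak within 1 kb of a transcription start site (TSS), and the same 42 genes had one in the NT, the curdlan and the curdlan+FK506 list. Over all protein-coding genes the share was 49.0% in NT, 48.9% in curdlan and 48.7% in curdlan+FK506, and 48.1% had a peak in all 3 lists. No Rab gene gained or lost its peak between conditions. The 14 Rab genes without a peak in any list were Rab3b, Rab3c, Rab4a, Rab9b, Rab17, Rab25, Rab26, Rab27b, Rab33a, Rab36, Rab38, Rab39b, Rab40b and Rab44. For 11 of them the nearest NT peak lay 21.0 to 328 kb from a TSS, while Rab26, Rab25 and Rab33a had one at 2.94, 3.06 and 4.45 kb. None of these 3 gaps closed after curdlan, where they were 2.77, 3.11 and 4.53 kb.

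Several numbers in the family are shared by paralogues, and the mark separated some of them. Among 13 numbers carried by more than 1 gene, all members were marked in 6, namely Rab1, Rab2, Rab5, Rab6, Rab8 and Rab11, and some but not all in 7. In these 7 the marked and unmarked members were Rab3a and Rab3d against Rab3b and Rab3c, Rab4b against Rab4a, Rab9 against Rab9b, Rab27a against Rab27b, Rab33b against Rab33a, Rab39 against Rab39b, and Rab40c against Rab40b. No number had all of its members without a peak. The ratio of observed to expected CpG dinucleotides within 500 bp of the gene start had a median of 0.75 at the 42 marked Rab genes and 0.51 at the 14 unmarked ones, and it exceeded 0.6 at 35 and 3 of them. Over all protein-coding genes the medians were 0.74 for those marked in all 3 lists and 0.26 for those marked in none. The ratio exceeded 0.6 at 8082 of these 10746 marked genes and at 1994 of the 11266 unmarked ones.

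**Figure D1:**
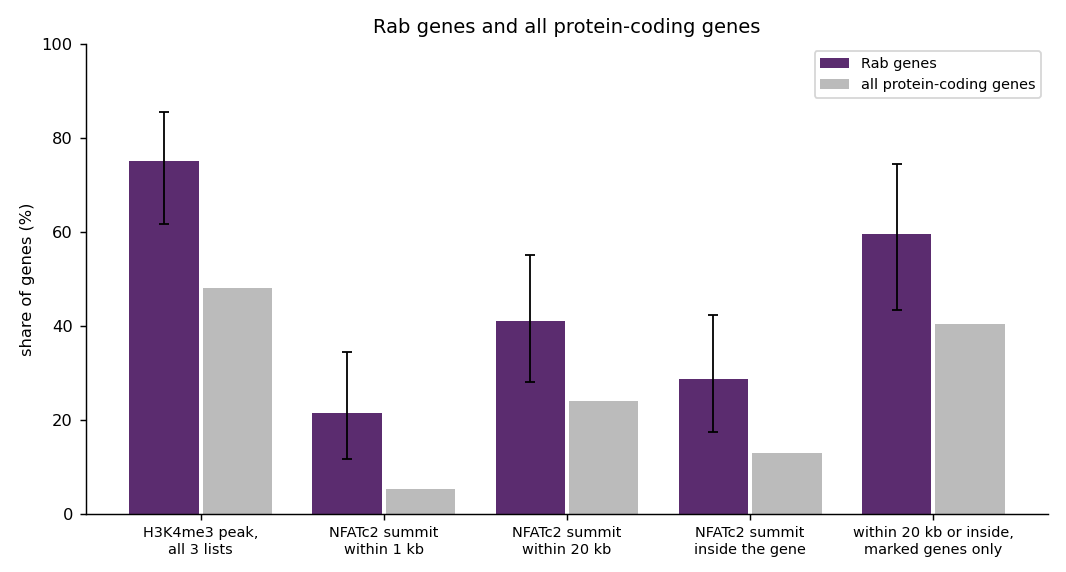
Share of the 56 Rab genes (purple) and of all 22350 protein-coding genes (grey) with each feature, in percent; the last pair covers only genes with an H3K4me3 peak in all 3 lists (42 Rab genes and 10746 genes in all). Error bars are exact 95% binomial intervals for the Rab genes and cover counting error only; the Rab bar is the taller one in each of the 5 pairs, for example 75% against 48.1% for the mark.

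The level of the mark was taken as the tags in a gene's peaks, in CPM. Its median over the 42 marked Rab genes was 52.2 in NT, 53.0 after curdlan and 54.0 after curdlan with FK506, and over all marked protein-coding genes it was 46.2, 42.7 and 41.4. The peaks of a Rab gene covered a median of 3346.5 bp in NT, 3820 bp after curdlan and 3262 bp after curdlan with FK506, against 3095, 3266 and 3173 bp over all marked genes. The levels spanned a wide range. The highest in NT were at Rab19 (175 CPM), Rab35 (150), Rab24 (112), Rab10 (107) and Rab5c (102), and the lowest at Rab15 (3.42), Rab31 (5.58), Rab32 (8.58), Rab37 (10.1) and Rab23 (15.3). Some of these peaks are not those of the Rab gene alone. The NT peak of Rab19 also held a TSS of Slc37a3, that of Rab24 one of Prelid1, that of Rab6 one of Mrpl48, that of Rab13 one of Rps27 and that of Rab2b one of Tox4, and their tags cannot be divided between the neighbours. When the summit of the H3K4me3 peak had to lie within 1 kb of a TSS, Rab19 and Rab6 no longer counted as marked in every list.

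**Figure D2:**
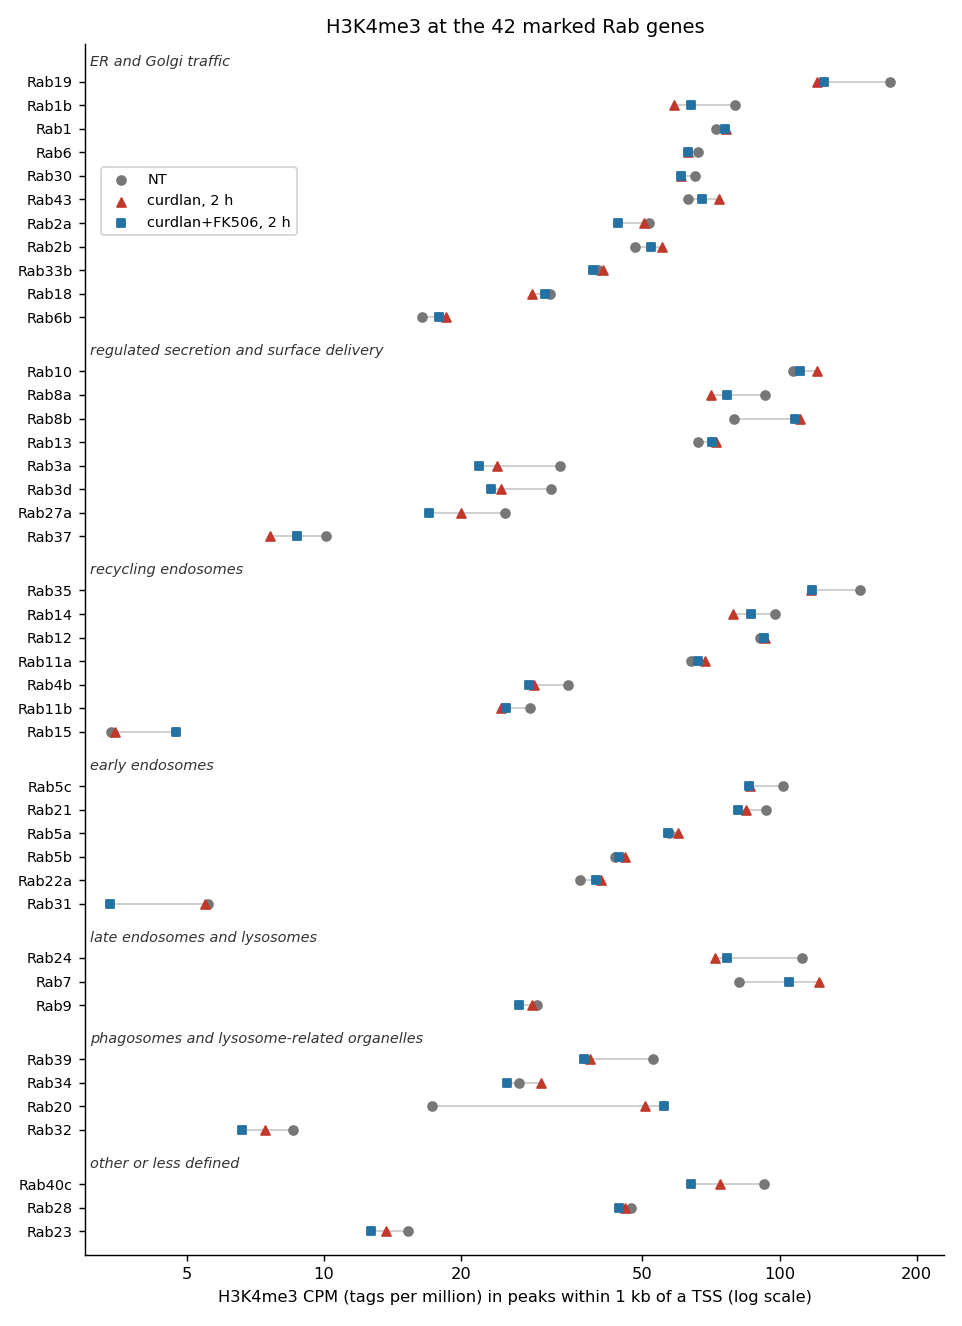
H3K4me3 level at each of the 42 marked Rab genes, in CPM (tags per 1000000) within peaks that lie within 1 kb of a TSS (log axis), grouped by the compartment the protein serves. Grey circles are NT, red triangles curdlan and blue squares curdlan+FK506, 1 library each; Rab20 has the widest gap between NT (17.3) and the curdlan libraries (50.7 and 55.8).

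Changes were expressed as the log2 ratio of the level between libraries, centred on the median of all protein-coding genes marked in both, which was −0.13 for curdlan over NT. A gene was counted as higher or lower when the centred change reached 1.5-fold (0.58 on the log2 scale). After curdlan 3 of the 42 marked Rab genes were higher (7.14%), Rab20, Rab7 and Rab8b, where 3.63% of all marked genes were, and 0 were lower, where 1.23% of all were. Without centring Rab20 alone was higher and Rab24 was lower. The 3 genes lie in different parts of the traffic system. Rab20 acts in phagosome maturation, Rab7 drives fusion of late endosomes and phagosomes with lysosomes, and Rab8b serves delivery of vesicles to the cell surface. The remaining 39 stayed between −0.50 (Rab24) and 0.36 (Rab43), and the median over the 42 was 0.07, with 23 above and 19 below 0.

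Rab20 (ENSMUSG00000031504, chr8:11453392-11478638, minus strand) had 289 tags in NT, 1079 after curdlan and 1086 after curdlan with FK506, or 17.3, 50.7 and 55.8 CPM. Both curdlan libraries were thus far above NT and close to each other. The centred log2 change was 1.67 for curdlan over NT (interval 1.48 to 1.87), a 3.19-fold increase that ranked 40 among 10815 genes. Its peak was 2.55 kb long in NT, 3.10 kb after curdlan and 3.05 kb with FK506, and the density rose from 6.78 to 16.3 and 18.3 CPM per kb. The peak also holds the start of a lincRNA on the other strand, E230013L22Rik, and tags carry no strand that would separate the pair. Rab20 thereby moved from rank 9610 to rank 4296 of the marked genes by level.

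Rab7 (ENSMUSG00000079477, chr6:87949100-87995264, minus strand) started from a high level. It had 1355 tags in NT, 2593 after curdlan and 2037 after curdlan with FK506, or 81.3, 122 and 105 CPM. Curdlan was highest, curdlan with FK506 lay between it and NT, and the centred change of curdlan over NT was 0.71 (0.61 to 0.81). The peak lengthened from 5.03 to 6.71 kb and was 5.68 kb with FK506, reaching further into the gene, so that the density changed less, from 16.2 to 18.2 and 18.5 CPM per kb. Per kb the centred change of Rab7 was 0.35, short of 1.5-fold.

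Rab8b (ENSMUSG00000036943, chr9:66691479-66767512, minus strand) had 1323, 2357 and 2095 tags, or 79.4, 111 and 108 CPM in NT, curdlan and curdlan+FK506. Both curdlan libraries again lay above NT, with a centred change of 0.61 (0.51 to 0.70) for curdlan over NT, close to the limit. The peak measured 6.05, 6.57 and 6.28 kb, and per kb the change was 0.54. Its paralogue Rab8a, which serves the same step, had 93.0, 70.9 and 76.7 CPM and a centred change of −0.27 (−0.37 to −0.16). The intervals of the pair do not overlap, although they leave out any variation between cultures.

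These 3 calls rest on tags summed over whole peaks, and on other measures they differed. The curdlan library was the deepest of the 3 and its input the shallowest, with 9309800 tags against 12085435 for NT, and the part of this in the changes was not tested. With the fold enrichment of the tallest peak over the input in place of tags, the centred changes were 0.31 for Rab20, −0.37 for Rab7 and 0.45 for Rab8b, so that none of the 3 reached 1.5-fold and Rab7 changed sign. On that measure 14.0% of all genes were higher and 14.3% lower, against 3.63% and 1.23% for tags. In bulk chromatin a mark on more cells and more mark per cell cannot be told apart.

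**Figure D3:**
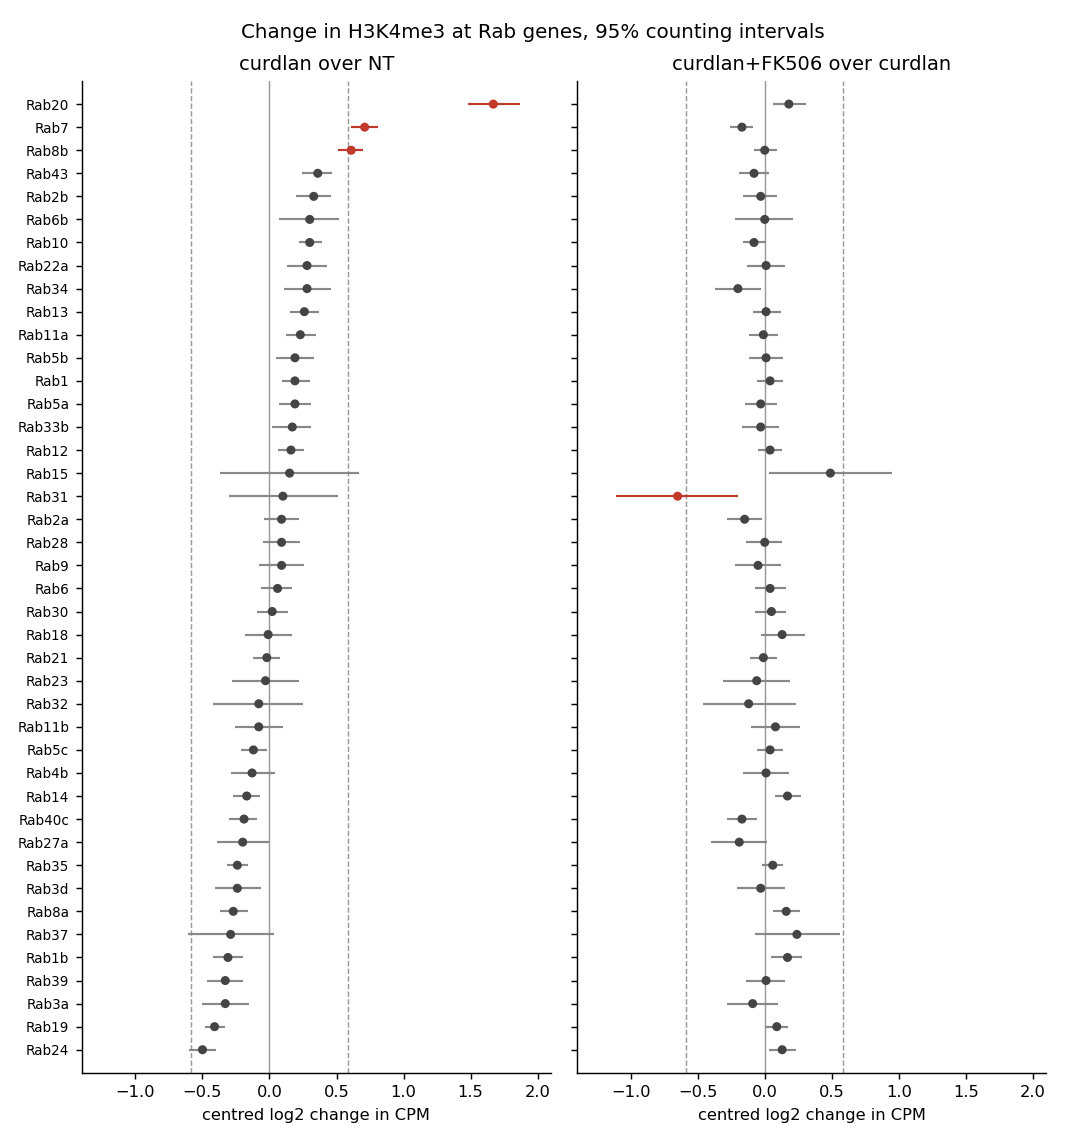
Centred log2 change in H3K4me3 CPM at the 42 marked Rab genes, for curdlan over NT (left) and curdlan+FK506 over curdlan (right), ordered by the left panel. Bars are 95% counting intervals, dashed lines mark 1.5-fold in either direction and red marks the genes past it: Rab20, Rab7 and Rab8b on the left and Rab31 on the right.

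By tags, most Rab genes had a similar level of the mark after curdlan with FK506 and after curdlan alone. For curdlan+FK506 over curdlan the median of all genes was −0.05 before centring, and 0 of 42 Rab genes were higher, where 0.389% of all genes were, and 1 (2.38%) was lower, where 1.14% of all were. The centred changes of the 3 genes above were 0.18 for Rab20 (0.06 to 0.31), −0.17 for Rab7 (−0.26 to −0.09) and 0.00 for Rab8b (−0.08 to 0.09). By tags these 3 changes were all within 1.5-fold. By fold enrichment they were 0.64, 0.63 and 0.84, each past 1.5-fold and that of Rab7 with the other sign, and on that measure 13.7% of all genes were higher and 14.2% lower. The gene called lower was Rab31, which serves transport between the Golgi and endosomes. It had 93 tags in NT, 117 after curdlan and 66 with FK506, a centred change of −0.65 for FK506 over curdlan whose interval, −1.11 to −0.20, reflects these few tags.

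Curdlan with FK506 over NT shares a library with each of the other comparisons, and its median over all genes was −0.18. In it 3 of 42 Rab genes were higher (2.87% of all genes) and 0 lower (1.23% of all). The 3 were Rab20 with a centred change of 1.86 (1.67 to 2.05), Rab15 with 0.64 (0.15 to 1.15) and Rab8b with 0.62 (0.52 to 0.72), and Rab7, at 0.54, was just short of 1.5-fold. Without centring 1 gene, Rab20, was higher and 2, Rab31 and Rab3a, were lower. Rab15, a GTPase of recycling endosomes, rests on the weakest peak of the family in NT, with 57, 74 and 92 tags in NT, curdlan and curdlan+FK506. That peak (chr12:77914091-77915389 in NT) lies at a TSS inside the gene. No list had a peak within 1 kb of the 5′ end of Rab15, at 77923895.

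By compartment, the early endosome group had 6 of 7 genes marked. The 3 Rab5 genes, which govern fusion of early endosomes, differed in level, and none changed by 1.5-fold. Rab5a had 57.3, 59.9 and 56.9 CPM in NT, curdlan and curdlan+FK506. For Rab5b these were 43.6, 45.7 and 44.5, and for Rab5c 102, 86.1 and 85.8, with centred changes for curdlan over NT of 0.19, 0.19 and −0.12. Rab21, which handles integrin uptake, had 93.4, 84.5 and 81.2 CPM. Rab22a, of early endosomes, had 36.5, 40.6 and 39.6, and Rab31 5.58, 5.50 and 3.39. Rab17, known from epithelial cells, was the unmarked member.

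In the recycling endosome group 7 of 9 were marked and none reached 1.5-fold after curdlan. Rab11a, the best known of this group, had 63.9, 68.7 and 66.3 CPM and its paralogue Rab11b 28.3, 24.5 and 25.1. Rab35, of the short recycling route at the plasma membrane, had 150, 117 and 118, and Rab14 97.5, 79.2 and 86.6. Both were highest in NT. The remaining marked members were Rab12 (90.6, 92.8 and 92.6), Rab4b (34.4, 28.9 and 28.2) and Rab15, while Rab4a and the epithelial Rab25 were unmarked.

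Of 5 late endosome and lysosome genes 3 were marked, and beside Rab7 these were Rab9 (29.4, 28.7 and 26.8 CPM), which returns receptors to the Golgi, and Rab24 (112, 72.2 and 76.5), linked to autophagy. Rab24 had the lowest change of the family after curdlan, −0.50 (−0.60 to −0.40), and its peak, shared with Prelid1, shortened from 7231 to 4562 bp. Per kb the direction turned, to 0.22. Among 7 genes of phagosomes and lysosome-related organelles 4 were marked. Rab20 apart, they did not rise by 1.5-fold: Rab34, which positions lysosomes, had 26.8, 29.9 and 25.2 CPM. Rab39 had 52.7, 38.3 and 37.3, and Rab32, of melanosomes and similar organelles, 8.58, 7.42 and 6.63. Rab38, the close relative of Rab32, was without a peak, as were Rab39b and Rab44.

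The ER and Golgi group was marked at 11 of 12 genes, with a median NT level of 63.0 CPM and changes after curdlan from −0.41 at Rab19 to 0.36 at Rab43. The secretion group was marked at 8 of 12. Rab27a, needed for release of secretory granules, had 25, 20 and 17.0 CPM in NT, curdlan and curdlan+FK506, and Rab3a and Rab3d, known from regulated exocytosis, had 32.9 and 31.5 in NT and 24 and 24.5 after curdlan, all changes within 1.5-fold. Rab10 had 107, 121 and 111 CPM, and Rab37 10.1, 7.61 and 8.73. The Rab37 peak (chr11:115014690-115016154 in NT) lies at a TSS inside the gene, and its 5′ end at 114952745 had none within 1 kb. In the secretion group 3 of the 8 marked genes, among them Rab8b (0.61), had a change above 0 and 5 below. Its median was −0.22, against a median of 0.00 over all marked genes. The medians were 0.09 in the ER and Golgi group, −0.08 for recycling endosomes and 0.15 for early endosomes. They were 0.09 for late endosomes and lysosomes, 0.1 for phagosomes and lysosome-related organelles and −0.03 for the less defined genes. Differences between groups were not tested.

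NFATc2 summits, the positions of highest tag density in the peaks, lay near or in many Rab genes. A summit lay within 20 kb of a TSS of 23 Rab genes (41.1%, 24.1% of all genes) and inside 16 (28.6%, 13.0% of all), and 26 (46.4%) had one by either definition, as did 26.4% of all genes. At the closest range, 12 Rab genes (21.4%, exact interval 11.6 to 34.4) carried a summit no further than 1 kb from a TSS, where 5.29% of all genes did. Of these near summits, only those at Rab11b and Rab40c had a MACS p-value of 1e-10 or less (2.5e-24 and 9.6e-24). The share at this range was not computed for marked genes alone. NFATc2 summits are more common at marked genes. Among genes marked in all 3 lists 25 of 42 Rab genes (59.5%, interval 43.3 to 74.4) and 40.4% of all genes had a summit within 20 kb or inside, and among genes marked in none 1 of 14 Rab genes, Rab17, and 12.7% of all. With only summits at a MACS p-value of 1e-10 or less, 12 of the 56 Rab genes (21.4%, interval 11.6 to 34.4) and 15.0% of all genes had one within 20 kb or inside. That interval holds the share of all genes.

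The 44 summits at these 26 genes had between 20 and 220 NFATc2 tags with a median of 58.5, against 63 over all 9438. Of them 23 were in an intron of the Rab gene, 1 in an exon and 20 outside it, and for 30 the Rab gene had the nearest protein-coding TSS. A total of 17 (38.6%) lay inside an NT H3K4me3 peak, where 23.8% of all summits did. The core of the NFAT consensus, GGAAAA on either strand, occurred within 100 bp of 15 summits (34.1%) and of 45.6% of all summits. TGANTCA, the AP-1 element on either strand, occurred at 13 (29.5%) and at 21.8% of all. These letter runs cannot overlap each other, and a match describes the sequence only.

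The sequences below span 100 bp to each side of the summits with the most tags at the 3 genes that were higher after curdlan (both of the strongest for Rab7), the Rab8b summit at the gene start, and the summit with the most tags in the family, at Rab21. They show which of these sites carry the letters of the NFAT or AP-1 element. They are the plus strand of mm9, 5′ to 3′, and capitals mark GGAAAA, its reverse complement TTTTCC, and TGANTCA.
Rab20 intron summit, chr8:11464273-11464473: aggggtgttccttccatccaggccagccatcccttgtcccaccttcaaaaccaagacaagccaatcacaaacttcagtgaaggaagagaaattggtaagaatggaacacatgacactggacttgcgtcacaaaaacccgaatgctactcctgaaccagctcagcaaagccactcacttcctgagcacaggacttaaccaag
Rab7 near upstream summit, chr6:87997849-87998049: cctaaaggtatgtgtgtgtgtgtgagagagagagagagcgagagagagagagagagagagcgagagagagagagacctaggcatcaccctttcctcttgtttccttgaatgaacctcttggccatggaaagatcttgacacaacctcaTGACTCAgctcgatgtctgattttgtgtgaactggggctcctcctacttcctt
Rab7 far upstream summit, chr6:88010794-88010994: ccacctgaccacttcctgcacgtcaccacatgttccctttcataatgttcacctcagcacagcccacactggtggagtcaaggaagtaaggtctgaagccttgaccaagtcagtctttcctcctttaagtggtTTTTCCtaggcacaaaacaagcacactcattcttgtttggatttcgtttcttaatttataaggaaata
Rab8b intron summit, chr9:66745923-66746123: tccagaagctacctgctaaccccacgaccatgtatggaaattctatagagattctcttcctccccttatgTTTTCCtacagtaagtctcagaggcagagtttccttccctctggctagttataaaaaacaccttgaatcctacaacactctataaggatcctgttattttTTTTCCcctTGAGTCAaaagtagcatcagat
Rab8b summit at the gene start, chr9:66767693-66767893: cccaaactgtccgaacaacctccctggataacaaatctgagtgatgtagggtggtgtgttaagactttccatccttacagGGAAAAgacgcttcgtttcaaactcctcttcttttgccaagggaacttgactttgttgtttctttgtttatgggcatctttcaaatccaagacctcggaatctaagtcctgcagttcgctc
Rab21 upstream summit, chr10:114765700-114765900: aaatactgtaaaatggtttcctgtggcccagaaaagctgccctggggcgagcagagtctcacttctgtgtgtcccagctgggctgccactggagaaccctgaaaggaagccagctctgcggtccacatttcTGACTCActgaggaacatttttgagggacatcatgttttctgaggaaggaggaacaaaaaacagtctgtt

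Rab20 had a single summit, in its intron 14.3 kb downstream of the TSS, with 219 tags, more than 95% of all NFATc2 peaks, a fold enrichment of 17.0 and a MACS p-value of 9.4e-44. Its window printed above holds neither motif. Rab7 had 4 summits, at −15.6, −11.7 and −2.69 kb from a TSS (negative is upstream) and in an intron at 10.9 kb, with 180, 77, 198 and 123 tags. None of the 4 lay inside an H3K4me3 peak. The 2 strongest differ in sequence, the far one holding GGAAAA on the minus strand and the near one TGANTCA. Rab8b also had 4, at the gene start (−281 bp, 47 tags) and in introns 21.4, 42.8 and 45.9 kb downstream, with 148, 39 and 32 tags. Those at 42.8 and 45.9 kb lay nearest to a TSS of Aph1c. The window of the strongest Rab8b summit, with a MACS p-value of 2.7e-54, held 2 copies of GGAAAA and 1 of TGANTCA. The 200 bases upstream of Rab20, of Rab7 and of Rab8b hold no copy of either motif, while GGAAAA occurs there in 16.5% of all protein-coding genes and TGANTCA in 4.80%.

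**Figure D4:**
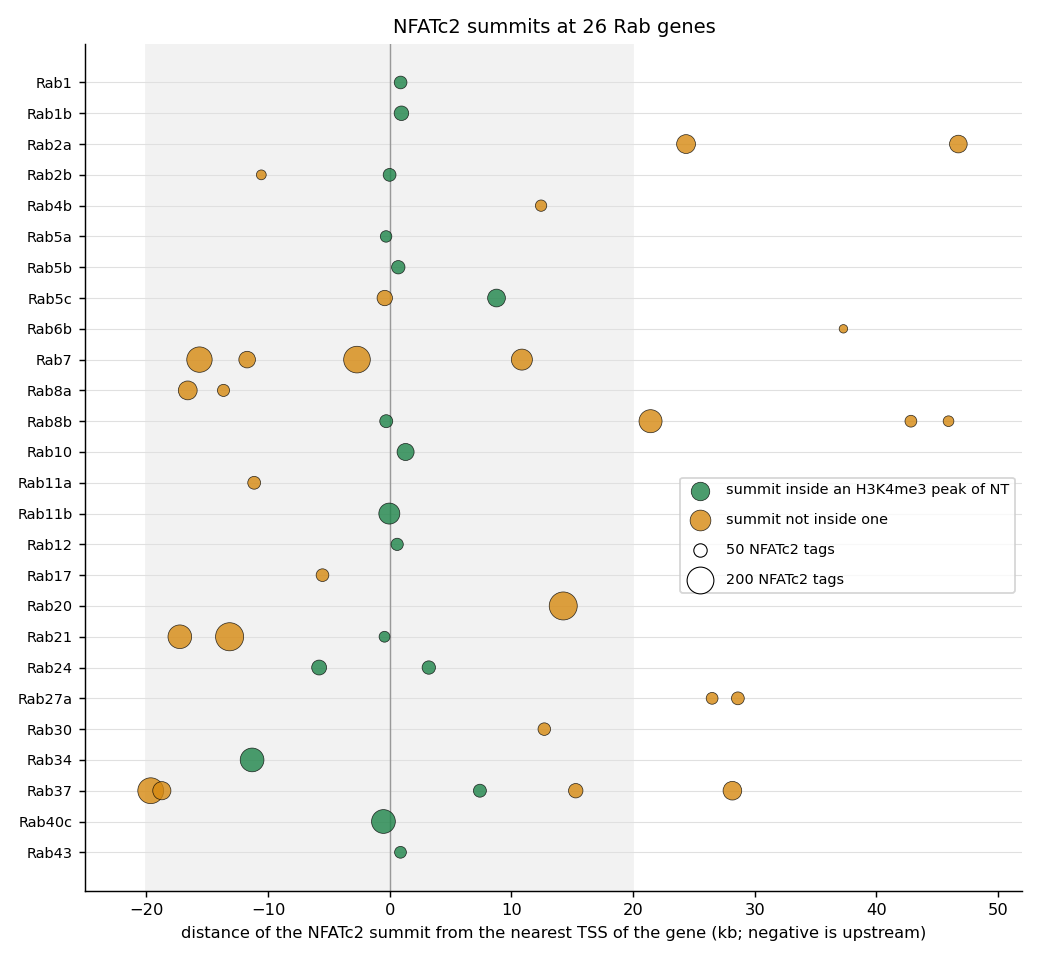
NFATc2 summits at the 26 Rab genes that have any, by distance from the nearest TSS of the gene in kb (negative is upstream); the grey band is the 20 kb window and summits beyond it lie inside the gene. Circle area is proportional to NFATc2 tags, and green circles lie inside an NT H3K4me3 peak. The largest circles, at Rab21 (220 tags) and Rab20 (219), are orange and away from the TSS.

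Summits with many tags also lay at genes whose mark stayed within 1.5-fold. Rab21 had 3 summits, at −13.2 kb with 220 tags and a MACS p-value of 5.9e-82, at −17.2 kb with 156 tags and at −421 bp with 33 tags. Its H3K4me3 change after curdlan was −0.02 (−0.12 to 0.08), which covers only peaks within 1 kb of a TSS. The summit at −17.2 kb lay in an H3K4me3 peak of the curdlan list and in none of the NT or curdlan+FK506 lists. Rab40c had a summit with 158 tags in an intron, at −511 bp from a TSS inside the gene, and a change of −0.19. Rab11b had one at −28 bp with 123 tags and a change of −0.08. Rab37 had the most summits, 5, with 47 to 186 tags, but the one with 186 tags lay nearest to the start of Cd300e and others nearest to Cd300lf and Slc9a3r1, and its change was −0.29. The summit at −11.3 kb of Rab34 (157 tags) lay in an exon of Tlcd1, and both summits of Rab8a (99 and 41 tags) lay in an intron of Tpm4.

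Summits close to a TSS mostly had fewer tags. Those within 1 kb at Rab1, Rab1b, Rab2b, Rab5a, Rab5b, Rab12 and Rab43 had 37 to 59 tags. That of Rab5c, with 66 tags, lay in an intron by a TSS inside the gene and in no H3K4me3 peak. Rab10 had one at 1.31 kb with 81 tags. Rab2b had a second summit with 27 tags, at −10.5 kb in an intron of Tox4, and its first lay in an exon of Tox4. Further out, Rab5c had a second summit with 88 tags and both motifs in its intron, nearest to a TSS of Hspb9. Rab2a had 2 intronic summits with 99 and 87 tags, each with GGAAAA. Rab4b, Rab6b, Rab11a, Rab17, Rab24, Rab27a and Rab30 had 1 or 2 summits each, with 20 to 62 tags. That of Rab4b lay in an intron of Egln2 and that of Rab24 with 62 tags in an intron of Mxd3. The Rab27a summit with 46 tags lay nearest to a TSS of 2410004A20Rik.

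Of the 25 marked Rab genes with a summit 3 were higher after curdlan, and of the 17 without a summit none were. Their medians for curdlan over NT were 0.16 and −0.01, and 15 of 25 and 8 of 17 were above 0. Over all marked genes the medians were 0.01 with and 0.00 without a summit, and 5.72% and 2.22% were higher. The difference between the Rab genes with and without a summit was not tested.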

How the data were processed

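NFATc2-V5 and H3K4me3 ChIP-seq libraries and their inputs were analysed from peak lists. Per the labels the authors mapped reads with bowtie 1 to mm9, and per the file headers they called peaks in each library with MACS 1.4.2 against its input at a p-value of 1e-05, keeping no more than 1 tag per position. The deposited lists give for each peak its position, the count of tags, the fold enrichment (a ratio to the local background), a score of −10 times log10 of the p-value with a limit of 3100, and the FDR in percent. The summit was placed at the start plus the listed offset minus 1.

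The symbol rule that defines the members uses no measured value, but the family and the gene lists were chosen with earlier results of these data known. Genes came from GENCODE mouse annotation version 1 (Ensembl 65, NCBI mouse build 37) on 20 chromosomes. A gene was marked when a peak overlapped 1 kb to either side of any TSS, and its level was the sum of tags of those peaks per 1000000 ChIP tags (CPM). Ratios between libraries were centred on the median over all protein-coding genes marked in both, and 1.5-fold was taken as a change. Intervals of ratios and shares are exact binomial at 95% and cover counting error only. Members named with values were those past 1.5-fold, those with an NFATc2 summit, the 5 highest and 5 lowest in NT and the endosome and phagosome groups; other genes of the pathway were named when among the 3 largest changes of their group. Alternatives for the window, p-value, FDR, overlap, centring, fold and measure were computed. Scripts were tested on simulated data with planted changes. The tools were pandas 2.3.3, numpy 2.4.6, pysam 0.24.0, scipy 1.17.1, matplotlib 3.10.9 and Python 3.11.15.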

Additional observations from a re-analysis of the deposited data

How the results depend on the processing

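With 1 library per condition, no result has a replicate check, and no paired analysis was possible because the groups share no replicates and no test was made. The number of Rab genes marked in all 3 lists, 42, was between 40 and 42 under the 6 alternatives. Rab19 and Rab6 were lost when the peak summit had to lie within 1 kb of a TSS. Rab15 and Rab31 were lost at a p-value of 1e-10 or less, and Rab15 at an FDR of 5% or less. The number past 1.5-fold after curdlan, 3 (all higher), was 1 at 2-fold and 1 per kb, Rab20 in both, and 5 by fold enrichment (3 higher, 2 lower), none of them shared. Without centring it was 2, Rab20 higher and Rab24 lower. For curdlan+FK506 over curdlan the number, 1, was 0 at 2-fold, 0 per kb, 0 at a p-value of 1e-10 or less, where Rab31 no longer had a peak in every list, and 14 by fold enrichment (9 higher and 5 lower, where 13.7% and 14.2% of all genes were). For curdlan+FK506 over NT the number, 3, was 1 at 2-fold and 1 per kb. It was 2 at a p-value of 1e-10 or less, where Rab15 no longer had a peak in every list, and 10 by fold enrichment (6 higher and 4 lower, where 13.5% and 13.7% of all genes were). Among genes past 1.5-fold, the sign reversed by fold enrichment for Rab7 in curdlan over NT (−0.37), Rab31 in curdlan+FK506 over curdlan (0.22) and Rab15 in curdlan+FK506 over NT (−0.09). Over all 42 members, 18 had the other sign by fold enrichment in curdlan over NT, 11 per kb and 6 without centring. The cause was not tested. Joining peaks over the lists and the tags after filtering, which equal the totals, left the counts as they were. So did limiting peaks to those without a TSS of another protein-coding gene, chosen after seeing the data. That limit does not cover noncoding genes, so the Rab20 peak, which holds the start of the lincRNA E230013L22Rik, stayed in. The number of Rab genes with an NFATc2 summit, 26 (26.4% of all genes had one), was 12 at a p-value of 1e-10 or less, where 15.0% of all genes had one. It was 22 to 29 under the other alternatives. Rab15 and Rab31, with 57 to 117 tags a library, lie where counting error is widest.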

Other observations

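The proteins that act on Rab GTPases were followed in the same way, with 110 symbols listed by function and 109 found in the annotation. Of these, 92 (84.4%, against 48.1% of all protein-coding genes) had an H3K4me3 peak within 1 kb of a TSS in all 3 lists, 1 (the exchange factor Dennd2a) in NT and curdlan but not with FK506, and 16 in none. Dennd2a had only 29 tags in NT and 41 after curdlan, or 1.74 and 1.93 CPM. The lowest levels of any marked gene in these lists were 1.14 and 1.22 CPM. The GTPase-activating proteins were marked at 35 of 37 genes, the exchange factors at 23 of 26, the prenylation and GDI group at 7 of 8 and the effectors at 27 of 38. The unmarked effectors were Rilp, Sytl1, Sytl2, Sytl3, Sytl4, Sytl5, Mlph, Rims1, Rph3a, Rph3al and Bicd1. A summit of NFATc2 lay within 20 kb or inside 55 of the 109 (50.5%), against 26.4% of all protein-coding genes. Most of the 109 were marked, and among all genes marked in all 3 lists the share with a summit was 40.4%.

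After curdlan 7 of 93 marked in both lists were at least 1.5-fold higher and none lower, where 3.63% of all marked genes were higher and 1.23% lower. For these genes that act on Rab GTPases, no counting intervals and none of the alternatives above were computed. Among effectors 4 of 27 were higher. Rilpl2, a relative of the Rab7 effector Rilp, held 1914 tags (NT), 6681 (curdlan) and 5308 (curdlan+FK506), or 115, 314 and 273 CPM, a centred change of 1.58. Optn, an effector of Rab8, had 23.9, 44.9 and 40.1 CPM (1.03), and Rab11fip1, an effector of Rab11, 39.4, 65.5 and 56.0 (0.86). Exph5, an effector of Rab27, had 49.2, 80.1 and 50.2 CPM, a change of 0.83 for curdlan over NT and of −0.63 for curdlan with FK506 over curdlan, the only one of the 92 genes marked in both lists past 1.5-fold in that comparison; it was chosen after its values were seen.

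Among exchange factors 3 of 24 were higher. Dennd4a, which acts on Rab10, had 58.9, 105 and 86.9 CPM (0.96), Rabgef1, which acts on Rab5, 80.0, 135 and 141 (0.88), and Dennd5a 38.2, 62.6 and 63.5 (0.84). Rabgef1 had 4 NFATc2 summits and Dennd5a none. Of 35 GTPase-activating proteins and 7 prenylation and GDI genes 0 were past 1.5-fold after curdlan in either direction. The first group had Sgsm3 (0.50), Tbc1d9 (−0.39) and Tbc1d2b (−0.37) as its largest changes and the second Rabggta (−0.21), Chm (0.15) and Gdi2 (−0.15).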
